A study of Mus musculus with 6 samples.

Results

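The transcripts described here are 10 genes of tissue macrophages and the complement system, measured in whole pituitary glands of wild-type mice and of mice labelled Bmal1-/-. The genes are C1qa, C1qb, C1qc, Csf1r, Cd68, Aif1, Cd14, C3, Tyrobp and Fcer1g. A probe set was taken as a member when the annotation of the array paired it with exactly 1 gene and that gene was on the list, whether bright or dim. This rule gave 13 of 22626 probe sets and covered 9 of the 10 genes, out of 12393 genes on the array. C3, the central complement component, had no probe set under the rule and no value is given for it. C1qb and Csf1r had 3 probe sets each and the other 7 covered genes 1 each. Probe sets of 1 gene read the same RNA extract, so they are not independent replicates.

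All animals were male C57BL/6J mice aged 8 to 12 weeks, housed in equal spans of light and darkness. Glands were taken at zeitgeber time 12, when the lights go off. Each of the 6 arrays carried RNA pooled from 3 glands of 1 genotype, with wild-type replicates 1 to 3 and Bmal1-/- replicates 4 to 6. Arntl is the gene of BMAL1, the partner of CLOCK at the head of the circadian clock, and the labels name no driver that would limit its loss to 1 cell type. The comparison asks how the pituitary transcriptome at lights off differs when BMAL1 is missing.

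Pituitary macrophages lie between the endocrine cells and along the capillaries, where they take up debris and sample the tissue. They are a main source of C1q, the recognition molecule of the classical complement pathway, which binds antibody complexes and dying cells and starts the cascade that ends in cleavage of C3. CSF1R, the receptor for the growth factors CSF1 and IL34, keeps these cells alive. TYROBP and FCER1G are membrane adaptors whose ITAM motifs, short tyrosine-containing signalling sequences, carry the signals of surface receptors through kinases such as SYK.

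The labels were checked on the clock genes and the hormones. Values throughout are linear array intensities after scaling of each array by the MAS5 algorithm. Arntl itself rose, from 43.3 ± 7.29 (SD, n = 3) in wild type to 114 ± 12.8 on the arrays labelled Bmal1-/-. Where its probe set lies relative to the deletion is not stated, so this reading does not check the labels and directions below are relative to the labels. Dbp, a clock output gene under direct BMAL1 control, fell from 440 ± 59.1 to 68.6 ± 11.1. The growth hormone transcript Gh read 15480 to 20434 over the 6 arrays and the prolactin transcript Prl 12323 to 14923. No array stood apart, with Pearson's r of at least 0.970 between any pair across the tested probe sets.

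C1qa, which encodes the A chain of C1q, was the 1 member that passed the test, and it was lower on the arrays labelled Bmal1-/-. It read 132, 129.3 and 118.3 on the wild-type arrays and 81.3, 92.3 and 85.1 on those labelled Bmal1-/-. All 3 wild-type arrays lay above all 3 others. Its log2 fold change was -0.48 (SE 0.11, 95% interval -0.72 to -0.24, limma adjusted p = 0.0280), and the ratio of the mean intensities, Bmal1-/- over wild type, was 0.68. Fold changes are differences of mean log2(intensity + 16), Bmal1-/- minus wild type, a scale that understates the change of dim genes. The call rested on all 6 arrays: with any 1 left out the adjusted p was 0.0504 to 0.0898, while the log2 fold change stayed between -0.52 and -0.44. It was also lost when all 22626 probe sets were tested (adjusted p = 0.0556), a fit that called 1.46% of them. In a bulk extract, fewer macrophages and less of a transcript in each macrophage cannot be told apart.

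C1qc, the C chain, read 83.5, 87.7 and 101.4 in wild type and 69, 73.3 and 65.9 on the arrays labelled Bmal1-/-. The genotypes did not overlap, but the difference did not pass over all tested probe sets (log2 fold change -0.32, SE 0.12, interval -0.58 to -0.06, limma adjusted p = 0.149). With 64 added before the log in place of 16, the log2 fold change was -0.21.

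C1qb, the B chain, was read by 3 probe sets that differed in size of effect. The brightest, 1417063_at, read 128.1, 100.7 and 119.3 in wild type and 97.8, 110 and 84.4 on the arrays labelled Bmal1-/-. These values overlapped, with a log2 fold change of -0.22 (interval -0.50 to 0.06, limma adjusted p = 0.354). Probe set 1434366_x_at read 68.2, 75.2 and 55.1 against 49.3, 39.3 and 36, with no overlap. Its log2 fold change was -0.51 (interval -0.84 to -0.19, limma adjusted p = 0.0659), or -0.30 with 64 added. The last, 1437726_x_at, read 95.9, 54.1 and 61.5 against 59.1, 47.4 and 33, with overlap and a log2 fold change of -0.46 (interval -0.89 to -0.03, limma adjusted p = 0.205). Wild-type replicate 1 read far above the other 5 arrays, and without it the log2 fold change was -0.26 (adjusted p = 0.503). Without Bmal1-/- replicate 6 it was -0.30, and with 64 added -0.28. The ending _x_at marks probe sets whose probes can also match other transcripts. Where 1 probe set stands for the gene below, it is the brightest, as for every gene and whatever its ending. The intervals of the 3 overlap widely, and whether the probe sets differ from each other was not tested.

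**Figure D1:**
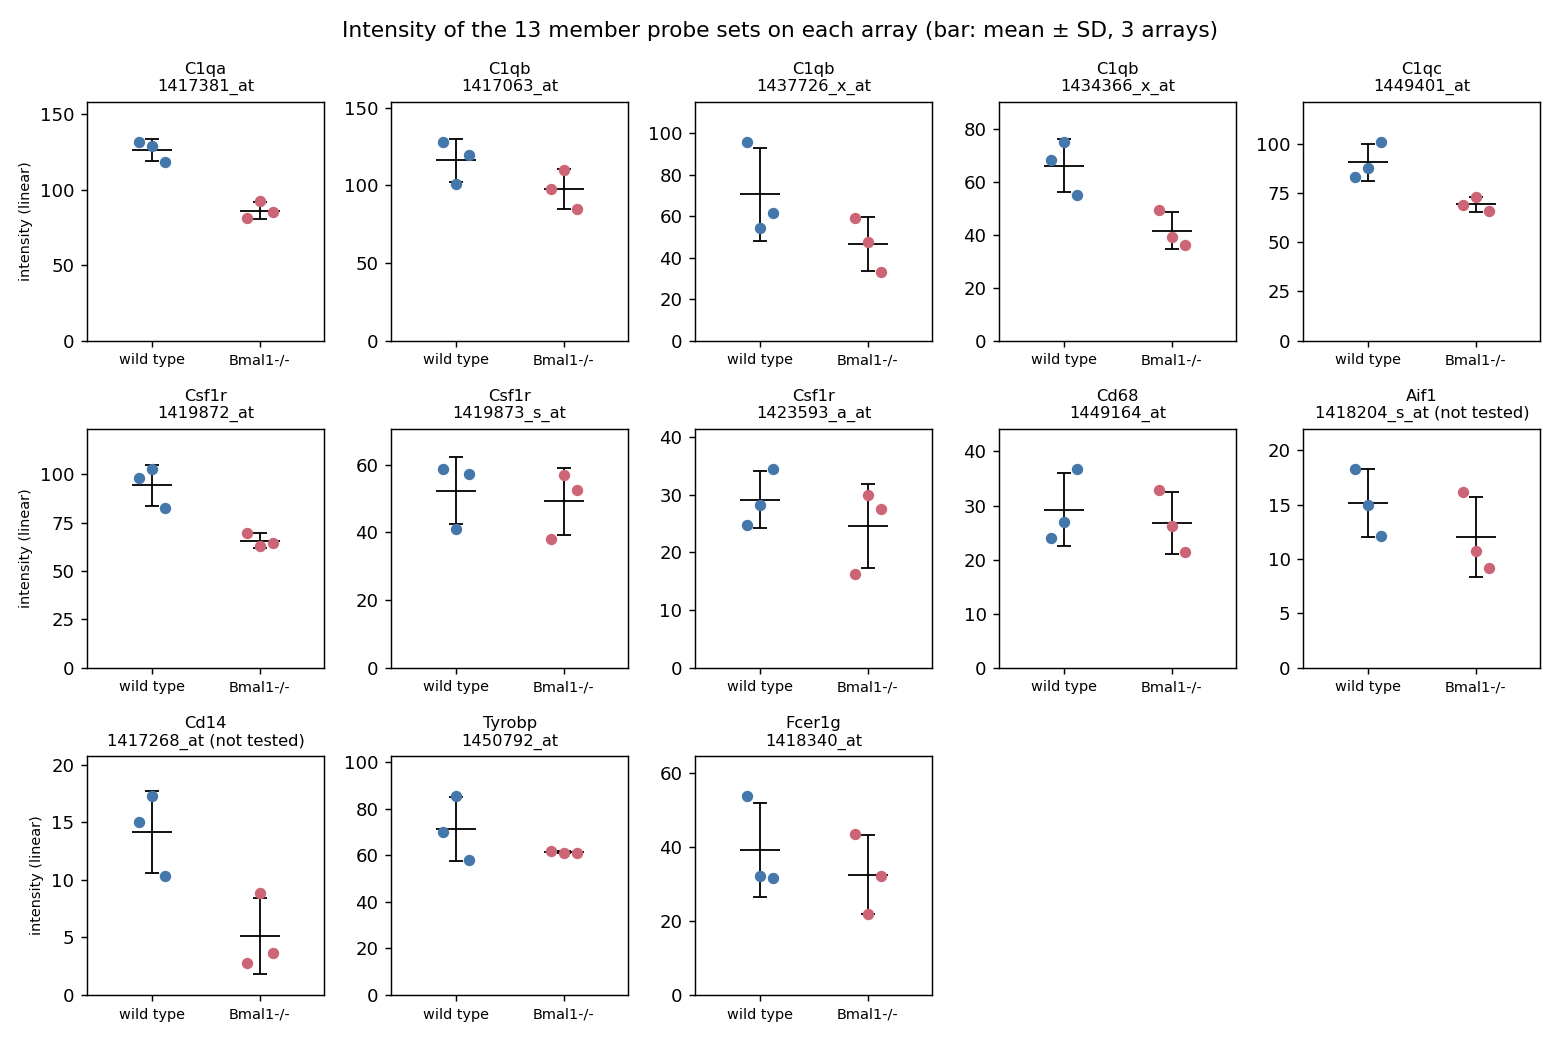
Linear intensity (vertical axes, each from 0) of the 13 probe sets on the 3 wild-type (blue) and 3 Bmal1-/- (red) arrays, with the bar at the mean ± SD of 3 arrays. C1qa falls from 127 ± 7.26 to 86.2 ± 5.59 with no overlap, whereas Cd68 (29.3 ± 6.69 and 26.8 ± 5.72) and Fcer1g (39.1 ± 12.6 and 32.5 ± 10.8) overlap throughout.

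The C1q genes lie next to each other on mouse chromosome 4 in the order C1qb, C1qc, C1qa, with no other gene listed between them in the RefSeq annotation of GRCm38.p6. Because these neighbours supply the A, B and C chains of 1 protein and all read lower on the arrays labelled Bmal1-/-, the 250 bases before the RefSeq start of C1qb and C1qc are shown, 5′ to 3′ on the gene's strand. They lie at chr4:136886201-136886450 and chr4:136892915-136893164, both on the minus strand. Capitals mark matches, on either strand, to the motifs searched, which were the E-box CACGTG bound by BMAL1 with its partner, its variant CACGTT, the hexamer AGGTCA bound by ROR and REV-ERB receptors, and GAGGAA, the core bound by the macrophage factor PU.1.
C1qb: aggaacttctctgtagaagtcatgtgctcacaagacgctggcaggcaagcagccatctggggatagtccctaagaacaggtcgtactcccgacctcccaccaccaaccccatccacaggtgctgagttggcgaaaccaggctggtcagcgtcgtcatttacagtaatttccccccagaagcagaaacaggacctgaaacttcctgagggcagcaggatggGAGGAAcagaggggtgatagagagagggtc
C1qc: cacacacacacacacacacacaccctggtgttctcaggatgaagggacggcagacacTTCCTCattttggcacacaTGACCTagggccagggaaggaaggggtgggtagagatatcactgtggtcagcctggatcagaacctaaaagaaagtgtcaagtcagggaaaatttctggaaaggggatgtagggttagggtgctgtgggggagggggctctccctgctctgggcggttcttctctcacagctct

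Neither window holds CACGTG or CACGTT, which occur in 6.02% and 3.85% of 32851 RefSeq promoter windows of 250 bases. The PU.1 core starts 30 bases before the start in C1qb and, on the opposite strand, 193 bases before it in C1qc. It occurs in 23.3% of all windows. The C1qc window also holds AGGTCA on the opposite strand, 174 bases before the start, a hexamer found in 14.0% of windows. No matches overlapped. RefSeq windows were at hand for 6 of the 10 genes. There was none for C1qa, the 1 member that passed, or for Csf1r, Cd14 and Tyrobp. Whether the C1qa promoter holds any of the motifs was therefore not tested. The windows of Cd68 and Aif1 hold the PU.1 core as well, those of Aif1 and C3 hold AGGTCA, and that of Fcer1g holds none of the 4 motifs. A match is a string of letters and not evidence of binding.

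Csf1r gave 1 probe set with separate genotypes and 2 that overlapped. On 1419872_at, the brightest, wild type read 97.8, 102.8 and 82.5 and the arrays labelled Bmal1-/- 69.8, 62.8 and 64.6. Every wild-type array was higher, with a log2 fold change of -0.43 (SE 0.12, interval -0.70 to -0.16), and the limma adjusted p of 0.0639 missed the threshold of 0.05. On 1419873_s_at wild type read 58.8, 40.9 and 57.4 and the others 38.1, 57.1 and 52.5, a log2 fold change of -0.07 (interval -0.42 to 0.29). On 1423593_a_at the values were 24.7, 28.3 and 34.5 against 16.2, 30 and 27.5, a log2 fold change of -0.17 (interval -0.55 to 0.22). In both of these Bmal1-/- replicate 4 was the lowest of the 6 arrays, and the other 2 arrays of that genotype lay within the wild-type range. The log2 fold change of 1419873_s_at was 0.06 without replicate 4 and 0.00 without wild-type replicate 1, and that of 1423593_a_at was -0.01 without replicate 4. The genotypes were thus separate on the brightest probe set alone.

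The intracellular macrophage markers overlapped between the genotypes. Cd68, a glycoprotein of the lysosome membrane, read 24, 27 and 36.8 in wild type and 32.8, 26.3 and 21.4 on the arrays labelled Bmal1-/-, with full overlap and a log2 fold change of -0.08 (interval -0.44 to 0.29, limma adjusted p = 0.841). Its sign depended on single arrays, at 0.04 without wild-type replicate 3 and 0.02 without Bmal1-/- replicate 6. Aif1, which encodes the actin-bundling protein IBA1 of macrophages and microglia, was too dim for the test. It read 18.3, 15 and 12.1 against 16.2, 10.7 and 9.2, with overlap and a log2 difference of -0.15, or -0.33 with 1 added before the log and -0.06 with 64. The intervals, -0.44 to 0.29 for Cd68 and -0.53 to 0.22 for Aif1 when all probe sets were tested, leave room for differences in either direction.

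Cd14, the co-receptor that hands bacterial lipopolysaccharide to TLR4, was also too dim for the test. Wild type read 15, 17.3 and 10.3 and the arrays labelled Bmal1-/- 2.8, 8.9 and 3.6. The genotypes did not overlap, and the log2 difference was -0.52. When all 22626 probe sets were tested, Cd14 did not pass (interval -0.90 to -0.14, limma adjusted p = 0.170). At such intensities the size of the difference is set by the constant added before the log: it was -1.42 with 1 added and -0.18 with 64.

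Both ITAM adaptors overlapped between the genotypes. Tyrobp, which encodes DAP12, the partner of TREM2, read 69.9, 85.6 and 58.2 in wild type and 62.1, 61 and 61.2 on the arrays labelled Bmal1-/-. The latter were nearly equal and inside the wild-type range, with a log2 fold change of -0.16 (interval -0.46 to 0.14, limma adjusted p = 0.562). It was -0.04 without wild-type replicate 2 and -0.27 without wild-type replicate 3. Fcer1g, the common gamma chain of Fc receptors, read 53.7, 32.1 and 31.6 against 43.4, 21.9 and 32.1, with a log2 fold change of -0.19 (interval -0.62 to 0.25, limma adjusted p = 0.650). One array in each genotype, wild-type replicate 1 and Bmal1-/- replicate 4, read highest, and the log2 fold change was -0.01 without wild-type replicate 1, -0.35 without Bmal1-/- replicate 4 and -0.02 without Bmal1-/- replicate 5. Both intervals include 0 but reach -0.46 and -0.62, so they do not show that the adaptors were alike in both genotypes.

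**Figure D2:**
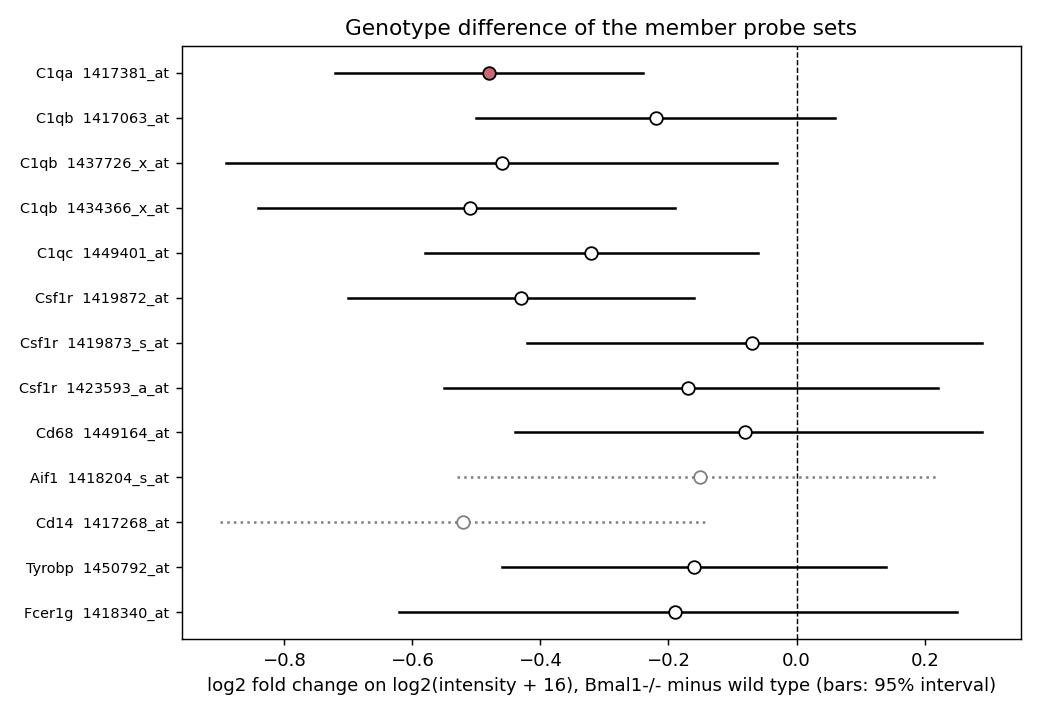
Log2 fold change on the log2(intensity + 16) scale, Bmal1-/- minus wild type (horizontal axis), with its 95% interval for each of the 13 probe sets. The filled point is C1qa at -0.48, the only one past an adjusted p of 0.05, open points did not pass, and dotted grey bars are the dim probe sets of Aif1 and Cd14 with the interval from the fit over all probe sets; every point lies below 0.

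Of the 11 member probe sets bright enough to be tested, 1 fell and none rose at a limma adjusted p under 0.05. Over all 13576 tested probe sets 2.78% fell and 2.75% rose. At an unadjusted p under 0.05 there were 5 of the 11, all lower, against 11.0% of all tested probe sets. The genotypes were separate, with Bmal1-/- lower, at 4 of the 11 (C1qa, C1qc, and 1 probe set each of C1qb and Csf1r), against 13.3% of all tested, and at 5 of the 13 with Cd14 included, against 11.6% of all probe sets. All 13 log2 differences lay below 0, between -0.52 and -0.07. Over the 7 tested genes, taking the brightest probe set of each, the median was -0.22, against 0.00 over all 8033 tested genes. Low-level probe sets as a whole leaned slightly the same way. Among the 6002 tested probe sets within the members' range of mean level the median was -0.02 and 54.3% lay below 0, and among the 9050 dim ones the median was -0.05 and 60.9% lay below 0. With arrays set to equal medians the median over all tested genes moved to 0.06, that of the 7 member genes to -0.16, and all 11 tested member probe sets stayed below 0.

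**Figure D3:**
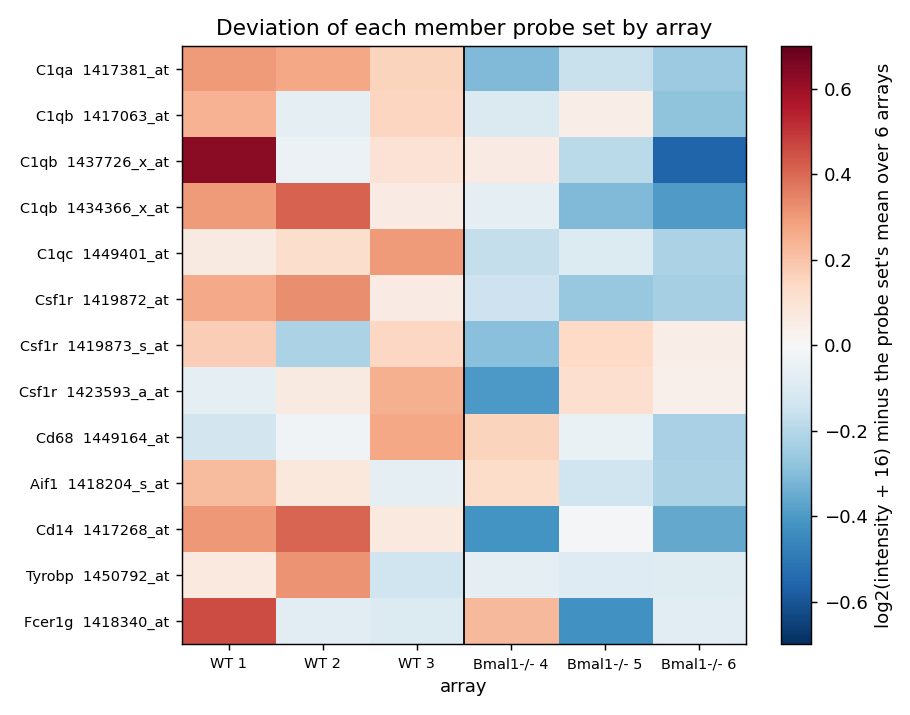
Each cell is log2(intensity + 16) of 1 probe set on 1 array minus that probe set's mean over the 6 arrays (red above, blue below), with the 3 wild-type arrays left of the line and the 3 Bmal1-/- arrays right of it. The median deviation over the 13 probe sets is 0.24, 0.08 and 0.10 in wild type and -0.10, -0.10 and -0.23 in Bmal1-/-.

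The median deviation of the 13 probe sets from their own means was 0.24 on wild-type replicate 1, 0.08 on replicate 2 and 0.10 on replicate 3, and -0.10, -0.10 and -0.23 on Bmal1-/- replicates 4, 5 and 6. Wild-type replicate 1 was the highest of the 6 arrays for 6 probe sets and Bmal1-/- replicate 6 the lowest for 6. The summed intensity of the 5 C1q probe sets was 508, 447 and 456 in wild type and 356, 362 and 304 on the arrays labelled Bmal1-/-. For the other 8 probe sets it was 362, 349 and 323 against 281, 279 and 272. Both sums were separate between the genotypes, although most of the 8 probe sets overlapped singly. The spread within a genotype also differed between members: the coefficient of variation of C1qa was 5.74% in wild type and 6.48% in Bmal1-/-, and that of Fcer1g 32.2% and 33.1%.

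Beyond the members, few genes of the complement cascade were bright enough to be tested. Of 57 listed complement genes, 42 had a probe set and 16 were tested. One of these passed, Cfi, and it rose. Cfi encodes complement factor I, the protease that inactivates the C3b and C4b fragments. It read 16.5, 26.6 and 20.4 in wild type and 48, 53.8 and 49.6 on the arrays labelled Bmal1-/-, which is 0.85 on the log2 scale (SE 0.15, limma adjusted p = 0.00765). The value was 1.24 with 1 added before the log and 0.43 with 64. Among all tested genes 5.66% passed in either direction.

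The other complement groups did not pass. Of 16 genes of the classical and lectin pathways 3 were tested, C1ra, Masp1 and Colec12, with log2 fold changes of -0.10, -0.10 and -0.21, none at an unadjusted p under 0.05. From the terminal pathway 1 of 7 was tested, C8g (-0.03), and from the alternative pathway none of the 2 with a probe set. Of the 7 regulators tested, Cfi included, 4 had an unadjusted p under 0.05, and those besides Cfi were lower without overlap and did not pass. Over all tested probe sets 11.0% were lower at an unadjusted p under 0.05, and 13.3% were lower without overlap. Serping1, the inhibitor of the C1 proteases, was at 119 ± 1.75 in wild type and 87.0 ± 8.54 (n = 3) (log2 fold change -0.39, limma adjusted p = 0.0639). Susd4, a sushi-domain inhibitor of complement, stood at -0.45 on that scale (adjusted p = 0.0750), and Vtn, which encodes the terminal-pathway inhibitor vitronectin, -0.34 (adjusted p = 0.231). Of 5 receptors and binding proteins tested, 1 had an unadjusted p under 0.05, Itgb2, the beta chain of the complement receptors CR3 and CR4 (log2 fold change -0.45, limma adjusted p = 0.154). Dim probe sets gave no test for the anaphylatoxin receptors C3ar1 (12.0 ± 3.35 and 8.07 ± 0.723) and C5ar1 (16.5 ± 3.22 and 3.50 ± 3.44). Not every dim complement gene read lower on the arrays labelled Bmal1-/-. Hc, of the terminal pathway, was at 8.93 ± 5.65 in wild type and 25.4 ± 7.04 on those arrays.

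Around CSF1R, none of 6 tested genes passed in limma and none had an unadjusted p under 0.05. Csf1, the ligand, had a log2 fold change of -0.19 (interval -0.59 to 0.22), and Irf8, a transcription factor of the myeloid lineage, -0.17 (interval -0.54 to 0.20). Il34, the other ligand, and Spi1, which encodes PU.1, were too dim for the test, at 11.6 ± 7.06 and 9.70 ± 0.100 for Il34 and 11.6 ± 2.96 and 14.0 ± 5.19 for Spi1.

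In the list of receptors and signalling proteins that work with the ITAM adaptors, 5 of 29 genes were tested and 1 fell. Plcg2, the phospholipase C that acts downstream of SYK in myeloid and B cells, read 112.2, 128.5 and 152.3 in wild type and 49.4, 55.2 and 84.3 on the arrays labelled Bmal1-/-. The genotypes were separate, the log2 fold change being -0.91 (SE 0.17, limma adjusted p = 0.00870), and the call was lost without wild-type replicate 3 (adjusted p = 0.0522). Fcgr2b, the inhibitory Fc receptor, had a log2 fold change of -0.49 and did not pass (adjusted p = 0.272). The TYROBP partner Trem2 was dim in both genotypes (7.17 ± 6.56 and 7.77 ± 4.94).

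None of the 9 tested genes of the lipopolysaccharide receptor pathway passed in limma, and 1 had an unadjusted p under 0.05. That was Lbp, the soluble protein that brings lipopolysaccharide to CD14. It read 163.1, 120.8 and 175.8 in wild type and 118.5, 98.7 and 94.8 on the other arrays (log2 fold change -0.49, adjusted p = 0.0639). It passed without wild-type replicate 2, at an adjusted p of 0.0153, and with estimated array weights (0.0486). Ly96, which encodes the TLR4 partner MD-2, and Myd88, the adaptor below TLR4, had log2 fold changes of 0.02 and 0.08.

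Of 46 other listed macrophage and microglia markers 42 had a probe set, 20 were tested, 2 fell and 1 rose, and the median log2 fold change was -0.20 with 18 of the 20 below 0, against 50.1% below 0 over all tested genes. Lyz1, a lysozyme gene, fell from 126 ± 19.0 to 60.3 ± 18.0 (n = 3), a log2 fold change of -0.91 (limma adjusted p = 0.00934), and its other tested probe set also fell (-0.79). Both are _x_at probe sets that may share signal with the near-identical Lyz2, which itself had a log2 fold change of -0.50 and did not pass (adjusted p = 0.0822). Plac8, abundant in myeloid and lymphoid cells, fell from 63.5 ± 10.1 to 33.2 ± 3.50 (-0.69, adjusted p = 0.0186), and the log2 fold change was -0.39 with 64 added before the log. This call was lost on leaving out wild-type replicate 1, Bmal1-/- replicate 4 or Bmal1-/- replicate 5 (adjusted p up to 0.0687) and with all probe sets tested (0.0603). Lgals3, the galectin of phagocytes and some epithelia, rose by contrast from 51.2 ± 11.4 to 122 ± 4.31 (1.06, or 0.70 with 64 added, adjusted p = 0.00131), and this call held under all 15 alternatives tried.

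The surface markers Adgre1 and Ptprc, both in that list, had intervals that spanned 0. Adgre1, which encodes F4/80, had a log2 fold change of -0.04 (interval -0.37 to 0.29) and Ptprc, the leukocyte antigen CD45, -0.08 (interval -0.45 to 0.30). Mpeg1, which encodes the pore-forming protein perforin-2, was at 99.6 ± 1.34 and 68.2 ± 15.0 without overlap, and Cx3cr1, the fractalkine receptor of resident macrophages, at 37.0 ± 7.21 and 24.3 ± 7.69 with overlap. Neither passed (limma adjusted p = 0.0681 and 0.219). Summed over the 42 genes with a probe set, the list read 1450 to 1633 in wild type and 1192 to 1376 on the arrays labelled Bmal1-/-.

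**Figure D4:**
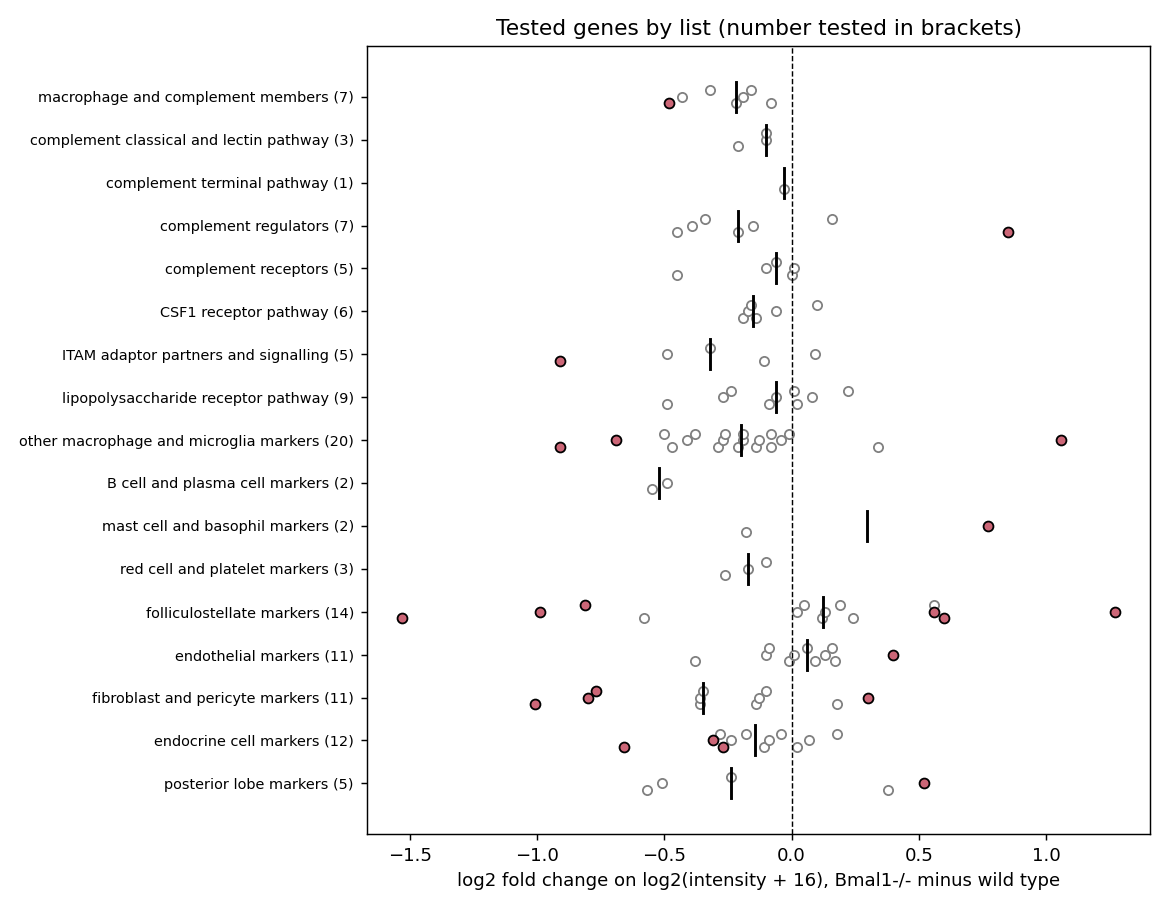
Log2 fold change, Bmal1-/- minus wild type (horizontal axis), of every tested gene in each list, with filled points past a limma adjusted p of 0.05, open points not past it and the black line at the list's median. The member genes have a median of -0.22 with 1 filled point, and the other macrophage and microglia markers a median of -0.20 with Lgals3 (1.06) far to the right.

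Some markers of other cell types also differed between the genotypes, and their part in the differences above was not tested. Over all tested genes 5.66% passed in either direction. Of 11 tested fibroblast and pericyte markers 3 fell and 1 rose, with a summed intensity of 3226 to 3324 in wild type and 2383 to 2405 on the arrays labelled Bmal1-/-. Such sums weigh bright genes most. The brightest in this list were the genes that passed, Mgp (means 891 and 433), Rgs5 (684 and 392), Dcn (479 and 269) and Col1a2 (651 and 804). Among 14 folliculostellate markers, the supporting cells of the gland, 3 fell and 3 rose (summed 3936 to 4496 and 3473 to 3991). In the endothelial list 1 of 11 rose (740 to 870 and 862 to 972), in the endocrine list 3 of 12 fell (62850 to 71457 and 57046 to 59500), and in the posterior lobe list 1 of 5 rose (402 to 511 and 401 to 464). Of 2 tested mast cell and basophil markers Hdc rose (summed 215 to 238 and 225 to 246 over 10 genes). Gata2, the brighter, did not pass (134 ± 3.59 and 116 ± 5.46, limma adjusted p = 0.346). Dim genes of this list went both ways, such as Tpsab1 (11.8 ± 10.2 and 1.37 ± 0.666) and Tpsb2 (2.33 ± 1.93 and 6.50 ± 2.33).

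Several of these calls were lost under other settings, and others held under all 15 alternatives tried. Those that held included Mgp (log2 fold change -1.01), Dcn (-0.80) and Rgs5 (-0.77) of the fibroblast and pericyte list. From the folliculostellate list Lcn2 (-1.53), Cx3cl1 (-0.99), Cyp2f2 (-0.81), Cpxm2 (1.27) and Rbpms (0.60) held. Other tested probe sets of Cpxm2 (0.61) and Rbpms (0.21 to 0.43) also read higher but did not pass. After quantile normalization the hormone gene Gh had a log2 fold change of 0.00 (limma adjusted p = 1.00) in place of -0.27. That of Cga was -0.04 (0.664) in place of -0.31. Quantile normalization gives every array the same set of values, so the very brightest probe sets can scarcely differ under it. With equal array medians Gh was at -0.21 (limma adjusted p = 0.0416) and Cga at -0.25 (0.0311). Ghrhr, a receptor of somatotrophs, passed under all 15 alternatives. Of these alternatives, the call was lost under 7 for Gh, 6 for Cga, 4 for Hdc, 6 for the endothelial Plvap, 7 for the collagen gene Col1a2 that rose in the fibroblast list, 3 for the folliculostellate Mia and 3 for the posterior lobe Mbp. For Gh and Cga these counts include quantile normalization. The other tested Col1a2 probe set did not rise (184 ± 9.22 and 175 ± 6.89, log2 fold change -0.07, limma adjusted p = 0.742). Leaving out 1 array ended the call of Hdc (wild-type 1, Bmal1-/- 4 or 6, adjusted p up to 0.0744), Plvap (wild-type 1 or 3, Bmal1-/- 4 or 5, 0.103) and Col1a2 (wild-type 1 or 3, Bmal1-/- 5 or 6, 0.140). It also ended that of Gh (wild-type 1 or 3, Bmal1-/- 5 or 6, up to 0.0996), Cga (wild-type 3, Bmal1-/- 4 or 6, 0.0834), Mia (wild-type 3, 0.0627) and Mbp (wild-type 3, Bmal1-/- 4 or 5, 0.0838). With all 6 arrays, the other tested probe sets of Hdc (log2 fold change 0.80, limma adjusted p = 0.00630) and Mbp (0.54, 0.0376) also rose and passed.

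Markers of other blood cells were mostly too dim to test. None of the 14 T and NK cell, 10 neutrophil or 10 dendritic cell genes with a probe set was tested, and their summed levels were 66.5 to 95.5, 49.5 to 87.7 and 36.1 to 46.1 in wild type and 57.7 to 60.9, 57.0 to 83.0 and 31.2 to 39.1 in Bmal1-/-. Of the B cell list 2 genes were tested, Cd79b, a chain of the antigen receptor (log2 fold change -0.49, limma adjusted p = 0.0666), and Ighm, the IgM heavy chain (-0.55, 0.0758). Neither passed. Both had an unadjusted p under 0.05, against 11.0% of all tested probe sets that were lower at that level. The 8 genes of the list with a probe set summed to 146 to 160 against 83.2 to 93.8. None of 3 red cell and platelet genes passed or had an unadjusted p under 0.05 (summed 131 to 234 and 133 to 196). No marker in any list was listed at exactly 0 on any array.

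The genes whose array profile was most like the mean of C1qa, C1qb and C1qc were Tgfbr1, B2m, Ror2, Ces1d and Nars, with Pearson's r of 0.996, 0.990, 0.988, 0.988 and 0.988 over the 6 arrays. With 12560 probe sets compared over 6 arrays, 108 had an r over 0.95, so these values describe likeness only. Among the 5, B2m, the light chain of MHC class I, fell from 2718 ± 163 to 1893 ± 206 (n = 3, log2 fold change -0.52, limma adjusted p = 0.00410), and the Ces1d probe set, which reads a carboxylesterase, from 82.1 ± 9.54 to 11.2 ± 6.42 (-1.87, adjusted p = 9.68e-05). Tgfbr1, Ror2 and Nars did not pass, at adjusted p of 0.360, 0.0679 and 0.190.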

How the data were processed

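Per the submitters' processing notes, the deposited values are MAS5 signals, 1 linear intensity per probe set and array, and per the labels each array was hybridised with biotin-labelled cRNA from 1 ug of total RNA. The sources used here do not give the MAS5 version, its target or detection calls. With 2% of values trimmed at either end, the mean intensity was 100.0 on each of the 6 arrays. Because MAS5 takes off a background estimated from mismatch probes, dim readings are noisy, and 3 arrays per genotype limit the precision.

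The 64 control probe sets were left out. The platform annotation listed 1 gene for 20380 of the other 22626, several for 691 and none for 1555. Values were transformed as log2(intensity + 16), and the brightest 60% by mean (13576 probe sets, down to an intensity of about 17.3) were tested with limma 3.58.1 in R 4.3.3 (lmFit, eBayes with trend, two-sided), with Benjamini-Hochberg adjustment over all of them. The brightest tested probe set stood for a gene. The procedure was tested on simulated data with noise drawn independently for each probe set. That test set no requirement for effects as small as those of the members.

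The members, gene lists and tests were chosen with earlier results of these data known. From each other list the rule names up to 6 genes that passed, or the 2 with the smallest p where none passed, plus the 5 genes most like the C1q mean. Some of these are left unprinted, and a few list members are named for their role, chosen after their values were seen. No gene is in more than 1 list. The alternatives tried were quantile normalization, equal array medians, pseudocounts of 1 and 64, no filter, the top 40% of probe sets, eBayes without trend or robust, array weights and each array left out. Promoter sequences are from RefSeq, GRCm38.p6.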

Additional observations from a re-analysis of the deposited data

How the results depend on the processing

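Against 752 probe sets called in all, with no filter on low values 330 were called and 0 of the members (limma, with 5 member probe sets at an unadjusted p under 0.05), and without the variance trend 407 were called. Leaving out 1 array gave 314 to 950 calls, 0 to 0 member calls (3 to 6 at an unadjusted p under 0.05) and a median member log2 fold change of -0.32 to -0.17. That median was -0.32 among the top 40% of probe sets, where only 6 member probe sets were tested. C1qa kept its call under 8 of 15 alternatives. With 1 array left out, members that changed sign were Csf1r 1419873_s_at (-0.20 to 0.06) and Cd68 (-0.18 to 0.04). Other genes near 0 that did so were C8g (-0.16 to 0.11, and 0.06 after quantile normalization and 0.03 with equal medians), C1qbp (-0.11 to 0.02, and 0.00 with equal medians), Masp1 (-0.20 to 0.01) and Itga2b (-0.29 to 0.01). The cause of these changes was not tested. The fits with 1 array fewer also have fewer samples. No paired analysis was possible because the genotypes share no replicate number. Aif1 and Cd14 were too dim for the test.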
